A study of Mus musculus with 12 samples.

Results

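Hydroxysteroid dehydrogenases move hydrogen onto or off the hydroxyl groups of steroids, and so help set whether a tissue holds an active hormone or a weaker form of it. Of this class, 6 genes known from liver, kidney or intestine (Hsd17b6, Hsd17b2, Hsd17b11, Hsd17b13, Hsd3b3 and Hsd3b2) are described here in the mouse duodenum after and before weaning, without and with the transcription factor gene Onecut2. They were picked by name, with results of these same arrays known, as 6 of the 19938 genes that had a feature with a single gene symbol, and each of the 6 had 1 feature. Their levels and fold changes are therefore a description, and no p-value is given for them.

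The study measured total RNA of duodenal segments on whole-transcript gene arrays, with 3 arrays in each of 4 groups. The groups were Onecut2 knockout at postnatal day 30, Onecut2 knockout at postnatal day 15, wild type at day 30 and wild type at day 15. All mice were of strain 129 and of mixed sex, none was treated, and each array carried a separate RNA pool from 5 to 8 mice, so spreads and tests refer to pools and not to single animals. The labels do not say which part of Onecut2 was deleted or in which cells. A level below is a log2 value after the authors' normalization, a fold change is a difference of 2 such levels, SD is over 3 arrays and SE is the moderated standard error. A gene was called at a Benjamini-Hochberg adjusted p of 0.05 in limma, fitted over all 19938 genes.

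In textbook accounts, enzymes of the Hsd17b family mostly oxidise or reduce the steroid D ring, which switches estradiol and testosterone to and from their weaker ketone forms. Enzymes of the Hsd3b family turn pregnenolone-type steroids into progesterone-type steroids, a step on the way to all classes of steroid hormone. Several Hsd17b proteins also act on fatty acids, bile acid intermediates or retinol, and some of them sit on lipid droplets, the fat stores that enterocytes fill during absorption.

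The DNA just upstream of these genes is shown because neighbouring genes fell by different amounts and Hsd17b6, at another locus, rose. RefSeq (GRCm38.p6) places Hsd3b2 and Hsd3b3 next to each other on chromosome 3, in a run with Hsd3b4, Hsd3b5, Hsd3b6 and Hsd3b1. Hsd17b13 and Hsd17b11 are neighbours on chromosome 5. Hsd17b6 lies on chromosome 10 at the end of a run of retinol dehydrogenase genes, beside Sdr9c7 and Rdh7. The RefSeq promoter table held 5 of the 6 genes, and the 250 bases before the first listed start are given for them, all read on the minus strand: chr10:128007612-128007861 for Hsd17b6, chr5:104021797-104022046 for Hsd17b11, chr5:103977389-103977638 for Hsd17b13, chr3:98763129-98763378 for Hsd3b3 and chr3:98724544-98724793 for Hsd3b2. Hsd17b2, on chromosome 8, is named only. Capitals mark letters that match a searched motif on either strand.
Hsd17b6: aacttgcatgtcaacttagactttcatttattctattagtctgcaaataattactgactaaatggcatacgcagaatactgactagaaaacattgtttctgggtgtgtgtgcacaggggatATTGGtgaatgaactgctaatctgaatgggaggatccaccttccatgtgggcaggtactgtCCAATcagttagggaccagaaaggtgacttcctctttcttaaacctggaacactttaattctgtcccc
Hsd17b11: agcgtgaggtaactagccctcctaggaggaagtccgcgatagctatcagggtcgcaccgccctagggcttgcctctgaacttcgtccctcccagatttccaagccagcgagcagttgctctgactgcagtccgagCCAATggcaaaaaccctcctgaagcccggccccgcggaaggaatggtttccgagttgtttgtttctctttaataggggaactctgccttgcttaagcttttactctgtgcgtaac
Hsd17b13: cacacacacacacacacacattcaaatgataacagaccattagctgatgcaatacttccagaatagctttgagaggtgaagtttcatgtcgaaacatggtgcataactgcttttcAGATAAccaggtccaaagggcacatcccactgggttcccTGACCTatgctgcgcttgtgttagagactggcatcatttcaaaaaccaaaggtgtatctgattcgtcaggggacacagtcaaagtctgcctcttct
Hsd3b3: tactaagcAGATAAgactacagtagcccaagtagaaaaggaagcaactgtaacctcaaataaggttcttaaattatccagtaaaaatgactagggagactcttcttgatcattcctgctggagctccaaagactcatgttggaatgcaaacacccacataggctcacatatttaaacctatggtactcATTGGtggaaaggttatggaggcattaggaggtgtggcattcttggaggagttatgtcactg
Hsd3b2: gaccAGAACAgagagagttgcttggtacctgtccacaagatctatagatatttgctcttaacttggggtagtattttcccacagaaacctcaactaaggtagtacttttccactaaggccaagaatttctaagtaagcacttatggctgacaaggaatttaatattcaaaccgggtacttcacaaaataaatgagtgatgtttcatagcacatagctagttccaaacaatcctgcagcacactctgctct

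The searched letters were those of the CCAAT box, the GATA factor motif (AGATAA), a nuclear receptor half-site (AGGTCA), a glucocorticoid receptor half-site (AGAACA), the TATA box (TATAAA), the core bound by Onecut proteins (ATTGAT and, as its variant, ATCGAT) and a core bound by HNF4 (CAAAGTCC), each on both strands. CCAAT or its complement stood in the windows of Hsd17b6, Hsd3b3 and Hsd17b11, and in 34.5% of all 27025 RefSeq promoter windows of that length. Hsd3b3 and Hsd17b13 held AGATAA, which 10.3% of all windows hold. Hsd17b13 also held a TGACCT, the complement of AGGTCA, found in 13.8% of windows, and Hsd3b2 held AGAACA, found in 16.2%. The TATA box (in 13.0% of all windows), either Onecut core (7.64%) and the HNF4 core (1.22%) had no match in these 5 windows, which says only that these letters are absent there.

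GC content of the windows was 54.8% for Hsd17b11 and between 39.6% and 44.8% for the other 4. In global pairwise alignments with gaps, the windows of the adjacent pair Hsd17b11 and Hsd17b13 had 48.4% of their 250 bases identical, and that of Hsd3b3 shared 54.8% with Hsd3b2 and 60.4% with its relative Hsd3b5. Such alignments give a high share to any pair: Hsd3b3 shared 53.2% with the window of Hsd17b6, on another chromosome. A second RefSeq start of Hsd3b3 at chr3:98762411-98762660 had a window that shared 99.2% of its bases with the first.

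With age these genes split in direction. At day 30 against day 15, Hsd17b6 rose 12.3-fold in knockout and 12.7-fold in wild type, while Hsd3b3, Hsd17b13, Hsd17b2, Hsd17b11 and Hsd3b2 fell. The largest of these falls was that of Hsd3b3, 17.4-fold in knockout and 7.44-fold in wild type. All 6 genes were called with age in both genotypes, 1 higher and 5 lower, where 31% of all genes were called in knockout and 29.3% in wild type. The median of the 6 age changes was -1.24 in knockout and -1.0 in wild type, against 0.03 and 0.02 over all genes. Since the 6 genes were chosen with these changes known, nothing is read from those counts.

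**Figure D1:**
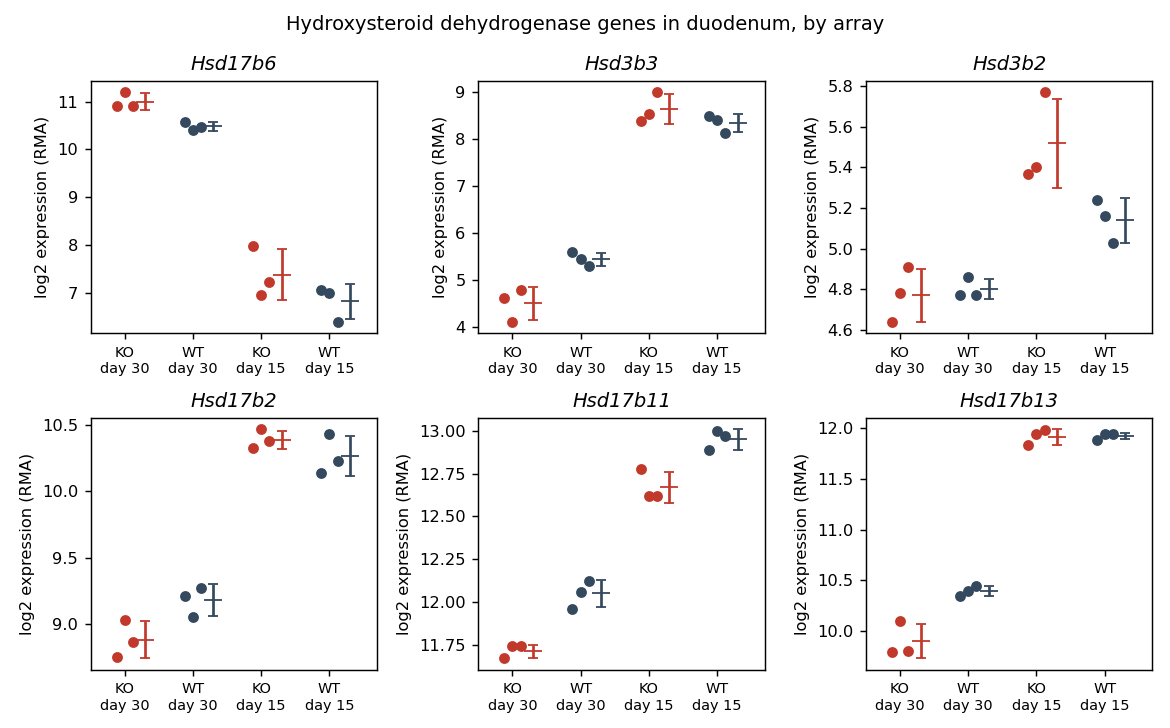
Log2 level of each of the 6 genes on each array (y axis) in the 4 groups (x axis), with points for arrays and bars for the mean and SD of 3 arrays. Hsd17b6 sits above 10 at day 30 and below 8 at day 15 in both genotypes, and Hsd3b3 sits below 6 at day 30 and above 8 at day 15.

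Hsd17b6 is related to retinol dehydrogenases and oxidises androstanediol, an inactive metabolite, back towards active androgen, and it is best known from liver and prostate. In knockout duodenum its levels were 10.90, 11.19 and 10.90 at day 30, against 7.97, 6.95 and 7.23 at day 15. Wild type levels were 10.58, 10.40 and 10.47 at day 30, against 7.06, 7.0 and 6.40 at day 15. The lowest day 30 array stood 2.93 above the highest day 15 array in knockout and 3.34 above it in wild type, so the ages did not overlap. The log2 fold change was 3.62 (SE 0.22) in knockout, the 8th largest of all rises there, and 3.67 (SE 0.22) in wild type, the 9th largest. Day 15 was the more variable age, with an SD of 0.53 in knockout and 0.37 in wild type, against 0.17 and 0.09 at day 30.

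Hsd17b2 runs the opposite way to most steroid-activating enzymes: it oxidises estradiol and testosterone to their weak ketones, and it is known from surface epithelia such as gut and placenta. Its knockout levels were 8.75, 9.03 and 8.86 at day 30, against 10.33, 10.47 and 10.38 at day 15. In wild type they were 9.21, 9.05 and 9.27 at day 30, against 10.14, 10.43 and 10.23 at day 15. The ages did not overlap in either genotype. The age change was -1.51 (SE 0.09), a 2.86-fold fall, in knockout and -1.09 (SE 0.09), a 2.13-fold fall, in wild type.

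Hsd17b11 and Hsd17b13 encode close relatives that both attach to lipid droplets. Hsd17b11 can convert androstanediol to androsterone, and Hsd17b13, chiefly a liver protein, has retinol dehydrogenase activity in humans. For Hsd17b11 the knockout levels were 11.67, 11.74 and 11.74 at day 30, against 12.78, 12.62 and 12.62 at day 15. The wild type levels were 11.96, 12.06 and 12.12 at day 30, against 12.89, 13.00 and 12.97 at day 15. The spread within a group was at most 0.09 (SD), the gap between ages was 0.88 in knockout and 0.77 in wild type, and the age changes of -0.96 and -0.91 (SE 0.06 each) were nearly alike in both genotypes.

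Its neighbour Hsd17b13 fell further. Knockout levels were 9.79, 10.10 and 9.80 at day 30, against 11.83, 11.94 and 11.98 at day 15. Wild type levels were 10.34, 10.39 and 10.44 at day 30, against 11.88, 11.94 and 11.94 at day 15. The 6 day 15 arrays lay between 11.83 and 11.98 whatever the genotype, whereas the day 30 arrays of the genotypes lay apart. That made the age change -2.02 (SE 0.08, 4.05-fold) in knockout and -1.53 (SE 0.08, 2.89-fold) in wild type.

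Hsd3b3 is a mouse form of the enzyme that makes progesterone-type steroids and is known from liver and kidney. In knockout it had levels of 4.62, 4.11 and 4.78 at day 30, against 8.38, 8.52 and 8.98 at day 15. In wild type it had 5.58, 5.43 and 5.30 at day 30, against 8.47, 8.40 and 8.12 at day 15. The ages lay far apart in both genotypes, with a gap of 3.60 in knockout and 2.54 in wild type. The log2 fold change was -4.12 (SE 0.18) in knockout and -2.90 (SE 0.18) in wild type, and since the day 30 values lie below the 25th percentile of gene means on these arrays (6.20), where folds are compressed, these are likely smaller than the true falls. Among all genes that fell, Hsd3b3 ranked 5th by fold in knockout and 21st in wild type.

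Hsd3b2, the kidney-associated neighbour of Hsd3b3, was dim in all groups. Its knockout levels were 4.64, 4.78 and 4.91 at day 30, against 5.37, 5.40 and 5.77 at day 15, and its wild type levels were 4.77, 4.86 and 4.77 at day 30, against 5.24, 5.16 and 5.03 at day 15. The age change was -0.74 (SE 0.10, 1.67-fold) in knockout and -0.34 (SE 0.10, 1.27-fold) in wild type, and at so low a signal neither size measures the true fold well. The wild type call of Hsd3b2 ended without replicate 1 or 2 of day 15 or without replicate 1 or 3 of day 30. Probes of Hsd3b2 and Hsd3b3 may share sequence with other members of this near-identical family, so part of 1 gene's signal could come from another, which was not tested.

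**Figure D2:**
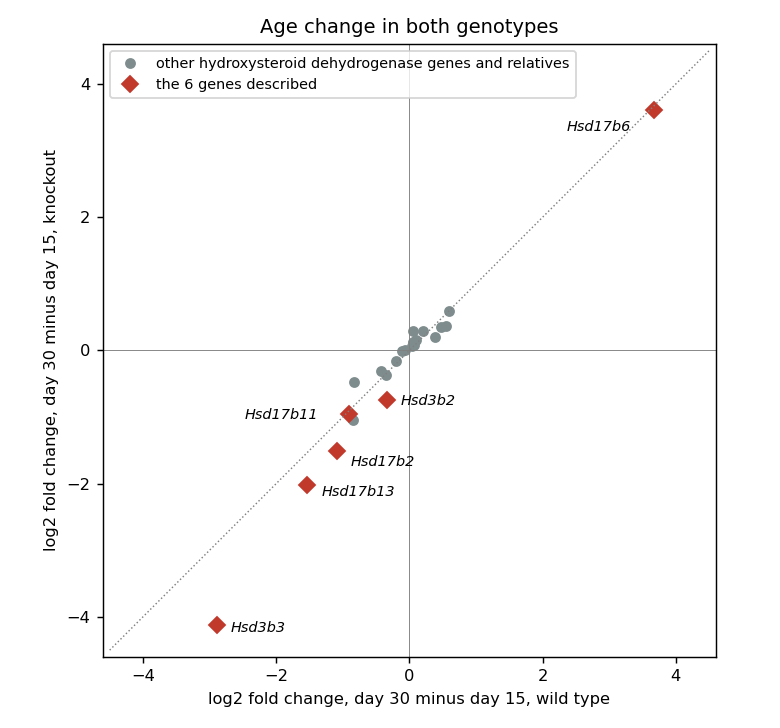
Log2 fold change from age in knockout (y axis) against that in wild type (x axis), day 30 minus day 15, for the 6 genes (diamonds) and the 18 other measured hydroxysteroid dehydrogenase genes and relatives (circles), with a dotted line where both are equal. The 18 lie between -1.04 and 0.60, while Hsd17b6 lies at 3.67 and 3.62 and Hsd3b3 lies below the line, at -2.90 in wild type and -4.12 in knockout.

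Over the 12 arrays, Hsd17b13 followed Hsd17b2 with a Pearson r of 0.99, Hsd3b3 with 0.98, Hsd17b11 with 0.97 and Hsd3b2 with 0.83, and it ran opposite to Hsd17b6 at -0.98. Because the arrays fall into 2 ages, these values mostly restate the age change and are a description only. Genes most like each of the 6, among those with an SD within 1.5 times its own, included Slc2a7 (0.985), Igkv5-43 (0.982) and Smpdl3b (0.98) for Hsd17b6. For Hsd17b13 they were the lipid droplet gene Mettl7b (0.995), Clic6 (0.994) and Agpat3 (0.992), and for Hsd17b11 they were the fatty acid importer of mitochondria Cpt1a (0.993), Hdac5 (0.988) and Tsc22d1 (0.987). Hsd17b2 was nearest to Fuca2 (0.989), Agpat3 (0.988) and Rai14 (0.988). The genes nearest to Hsd3b3 were the coagulation factor gene F10 (0.988), Acot1 (0.973) and Lect2 (0.969), and those nearest to Hsd3b2 were Slc34a3 (0.954), the angiotensinogen gene Agt (0.94) and Ptafr (0.93).

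Knockout and wild type differed in these genes by less than the ages did, except for Hsd3b2 at day 15, and the age changes had the same direction in both genotypes. At day 30 the knockout had less Hsd3b3 (1.90-fold), Hsd17b13 (1.41-fold) and Hsd17b11 (1.26-fold), and these 3 of the 6 were called, where 1.98% of all genes were. At day 15 only Hsd17b11, 1.22-fold lower in knockout, was called among the 6, where 3.83% of all genes were. As above, the choice of genes was made with these comparisons known. The targeted gene itself ran from 8.18 to 8.25 in knockout, against 9.50 to 9.63 in wild type, at day 30, and from 8.09 to 8.20 in knockout, against 9.55 to 9.69 in wild type, at day 15. Whether its probes lie in the deleted part was not analysed here.

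**Figure D3:**
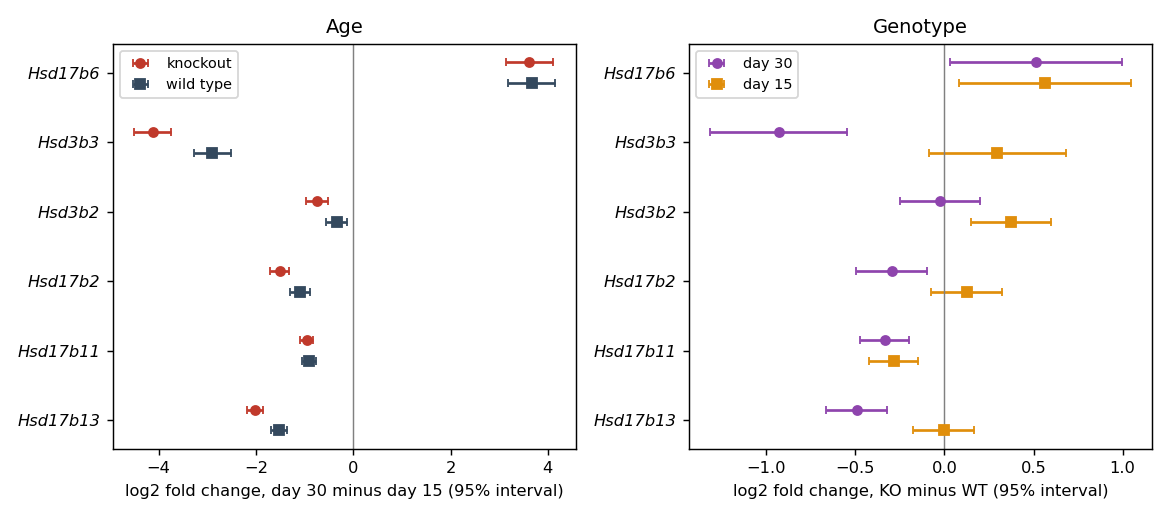
Log2 fold change of knockout over wild type (knockout minus wild type) for each of the 6 genes at day 30 and day 15, with bars for the 95% interval from limma. Hsd3b3 lies at -0.93 at day 30 and at 0.30 at day 15, Hsd17b13 at -0.49 and -0.01, and Hsd17b11 below 0 at both ages.

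Hsd3b3 showed the largest difference between genotypes at day 30. The knockout arrays had 4.62, 4.11 and 4.78 and the wild type arrays 5.58, 5.43 and 5.30, a gap of 0.52 between the nearest pair and a log2 fold change of -0.93 (SE 0.18, 95% interval -1.31 to -0.55). At day 15 the genotypes overlapped, with 0.30 (interval -0.09 to 0.68). The call at day 30 ended without wild type replicate 1 (log2 fold change -0.86) or replicate 2 (-0.93).

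Hsd17b13 differed at day 30 by -0.49 (SE 0.08, interval -0.66 to -0.32), and all 3 knockout arrays lay below all 3 wild type arrays. At day 15 its difference was -0.01 (interval -0.17 to 0.16) with overlapping arrays. Its call at day 30 held without any single array.

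Hsd17b11 was lower in knockout at both ages, by -0.33 (SE 0.06) at day 30 and -0.28 (SE 0.06) at day 15, and its genotypes did not overlap at either age. These small differences were called in some fits only: the day 30 call ended without knockout replicate 1 or wild type replicate 2 or 3, and the day 15 call ended without replicate 2 or 3 of either genotype.

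The other 3 genes were not called between genotypes. Hsd17b6 had 0.51 (interval 0.03 to 1.00) at day 30, where the genotypes did not overlap, and 0.56 (interval 0.08 to 1.05) at day 15, where they did. Hsd17b2 had -0.30 (interval -0.49 to -0.10) at day 30, with a gap of 0.02 between the nearest arrays, and 0.12 (interval -0.07 to 0.32) at day 15. Hsd3b2 had -0.03 (interval -0.25 to 0.20) at day 30 and 0.37 (interval 0.15 to 0.60) at day 15. Of the 6 genes, 5 had genotypes that did not overlap at day 30, as had 15.4% of all genes (1.98% were called), and 2 at day 15, as had 21.3% of all genes (3.83% were called).

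Set against each other, the genotype differences at day 30 minus those at day 15 were -1.22 (SE 0.25, interval -1.77 to -0.68) for Hsd3b3 and -0.49 (SE 0.11, interval -0.73 to -0.25) for Hsd17b13. They were -0.42 for Hsd17b2, -0.40 for Hsd3b2, -0.05 for Hsd17b11 and -0.05 for Hsd17b6. In limma 0 of the 6 were called in this comparison after adjustment, where 0.456% of all genes were, and 4 of the 6 lay under an unadjusted 0.05, where 8.85% of all genes did, a count given as description only. Both Hsd3b3 and Hsd17b13 were called there with an intensity trend in the variance, with array weights and after a repeated quantile normalization. Hsd3b3 was also called without knockout replicate 1 of day 15 (-1.35) or replicate 3 of day 30 (-1.36), and Hsd17b13 without knockout replicate 2 of day 30 (-0.59).

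Among the 18 other measured hydroxysteroid dehydrogenase genes and relatives, age changes lay between -1.04 and 0.60 in knockout and between -0.85 and 0.59 in wild type. These and the values below are log2 fold changes. In knockout 4 rose and 4 fell with age (median of the 18 0.10), and in wild type 5 rose and 5 fell (median 0.06), against medians of 0.03 and 0.02 over all genes, of which 31% and 29.3% were called. Nsdhl, a sterol dehydrogenase of cholesterol synthesis, rose by 0.60 in knockout and 0.59 in wild type. Hsd17b7, which serves the same pathway, rose by 0.37 and 0.54, and Hsd17b12, an enzyme of fatty acid elongation, rose by 0.36 and 0.47. The peroxisomal genes Hsd17b4 (-0.30 in knockout, -0.43 in wild type) and Hsdl2 (-0.48 and -0.83) fell. H6pd, which supplies cofactor to the glucocorticoid-activating enzyme, fell as well (-1.04 and -0.85). The gene of that enzyme, Hsd11b1, rose by 0.38 in wild type and had 0.21 in knockout, where it was not called. Its group means were low, between 5.86 and 6.24. Limma adjusted p-values of these calls were between 5.0e-07 and 0.0084.

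The relatives of Hsd3b3 and Hsd3b2 in the cluster on chromosome 3 were dim. Levels of Hsd3b1, Hsd3b5 and Hsd3b6 lay between 4.32 and 5.95 on all 12 arrays, and they were called in none of the 5 comparisons. Hsd11b2, which inactivates glucocorticoids and so guards the mineralocorticoid receptor, stayed between 7.20 and 7.45 and was not called either, whereas the gene of that receptor, Nr3c2, rose with age by 1.60 in knockout and 1.58 in wild type. Between genotypes, Hsdl2 at day 15 (-0.44, SE 0.06, limma adjusted p = 0.0013) was the only call among the 18, where 3.83% of all genes were called. At that age 6 of the 18 had an unadjusted limma p under 0.05, as had 15.2% of all genes. At day 30 limma called 0 of 18, where 1.98% of all genes were called. There 0 of the 18 had an unadjusted p under 0.05, against 11.2% of all genes.

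The listed genes of the run that ends with Hsd17b6 on chromosome 10 were named after their values had been seen. With age, Rdh9 rose by 2.02 in knockout and 1.44 in wild type, Rdh16 by 1.70 and 1.60, and the pseudogene Rdh18-ps by 1.62 and 1.31. Rdh1, at the far end, rose by 0.31 in wild type and had 0.18 in knockout, where it was not called. Rdh7, nearer to Hsd17b6, fell in wild type (-0.61, limma adjusted p = 6.7e-04) and had -0.24 in knockout (limma adjusted p = 0.11), and knockout had less of it than wild type at day 30 (-0.59, limma adjusted p = 0.011) and at day 15 (-0.95, limma adjusted p = 2.0e-04). Sdr9c7, the gene next to Hsd17b6, was not called with age (0.26 in knockout, 0.27 in wild type), and neither was Rdh19 (0.13 and 0.16). These genes are close relatives of each other, so shared signal between their probes was not tested. Of all 18 genes of this retinol-type list, 7 rose and 2 fell in knockout and 8 rose and 4 fell in wild type (medians 0.15 and 0.20), where 31% and 29.3% of all genes were called, with Dhrs11 (0.96 and 0.87) among the rises and Dhrs3 (-0.93 and -0.81), which returns retinal to retinol, among the falls.

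Lipid droplets are where the Hsd17b11 and Hsd17b13 proteins reside. Of 26 measured genes of these droplets, 3 rose and 7 fell with age in knockout, and 3 rose and 8 fell in wild type, with medians of -0.01 and -0.07. Over all genes 31% were called in knockout (2753 higher, 3425 lower) and 29.3% in wild type (2455 higher, 3394 lower). Plin2, the main droplet coat protein, fell by 1.90 in knockout and 1.85 in wild type, Mettl7b by 1.54 and 1.26, Dgat2, which makes triglyceride, by 0.94 and 1.30, and Abhd5, a lipase cofactor, by 1.04 and 0.95. The 3 that rose were the same in both genotypes. These were Dgat1, which also makes triglyceride (0.346 in knockout, 0.348 in wild type), Pnpla2 (0.35 and 0.387) and Fitm2 (0.203 and 0.215). At day 30 knockout differed from wild type in Dgat2 (0.35, limma adjusted p = 0.0056) and Mettl7b (-0.32, limma adjusted p = 0.039), and leaving out 1 array ended the call of Mettl7b for 8 of the 12 arrays.

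Of 11 genes of steroid synthesis, only Fdx1, an electron carrier for mitochondrial steroid enzymes, was called with age in knockout (0.34), and Fdx1 (0.25) and Cyp11b1 (0.33) were called in wild type. Of 16 genes of steroid sulfation and glucuronidation, 5 rose and 1 fell in knockout and 8 rose and 1 fell in wild type. The sulfotransferase gene Sult6b2 rose by 4.37 in knockout and 2.98 in wild type, Papss2, which makes the sulfate donor, by 2.13 and 1.19, and the cholesterol sulfotransferase gene Sult2b1 by 1.67 and 1.54. Of 11 aldo-keto reductase genes, some of whose enzymes reduce steroid ketones, 3 rose and 1 fell in knockout and 5 rose and 1 fell in wild type, led by Akr1b8 (1.19 and 1.20) and, downwards, Akr1c14 (-0.65 and -0.69). Of 8 steroid receptor genes, 2 rose in knockout, and 2 rose and 2 fell in wild type. Among all 108 relatives listed, 40 were called with age in knockout and 54 in wild type, where 31% and 29.3% of all genes were called, and their medians were 0.09 and 0.06. Leaving out 1 array ended the calls of Cyp11b1 and Rdh1 in wild type for 4 and 3 of the arrays, that of Akr1c14 in knockout for 2, and that of Rdh7 between genotypes at day 30 for knockout replicate 1 of that age.

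Between genotypes, 2 of the 108 relatives were higher and 5 lower in knockout at day 30, and 1 was higher and 7 lower at day 15. Over all genes 1.98% were called at day 30 (207 higher, 188 lower) and 3.83% at day 15 (360 higher, 404 lower). Among glucuronosyltransferase genes, whose enzymes tag steroids for excretion, Ugt2b36 was higher in knockout at day 30 (0.74, limma adjusted p = 0.011) and at day 15 (1.17, limma adjusted p = 2.5e-04), while Ugt2b5 (-0.92, limma adjusted p = 0.0044) and Ugt2b35 (-0.43, limma adjusted p = 0.011) were lower at day 30. Fdx1 was lower in knockout at day 30 (-0.29, limma adjusted p = 0.016) and at day 15 (-0.37, limma adjusted p = 0.0018), and its day 30 call ended without knockout replicate 2 or wild type replicate 1 or 3 of that age. The day 30 call of Ugt2b36 ended without wild type replicate 2 of that age (0.70), and that of Ugt2b35 without knockout replicate 1 (-0.41) or wild type replicate 3 (-0.42). The Ugt2b genes are near-identical relatives, and shared signal between their probes was not tested.

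Several measures of tissue makeup moved with the same ages and stand beside the values above. In whole tissue, fewer cells of a type and less RNA per cell cannot be told apart. Array means of 9 epithelial markers ran from 11.79 to 11.90 over all arrays, with knockout (11.86 to 11.90) above wild type (11.79 to 11.83) at day 15, and with that mean as a covariate the day 15 calls of Hsd17b11 and Hsdl2 ended. The steady mean hides members that moved apart. With age 3 of the 9 were called higher and 1 lower in knockout, and 5 higher and 1 lower in wild type. They ranged from Krt18 (-0.752 in knockout, -0.415 in wild type) to Ezr (0.398 and 0.258). Between genotypes 1 was called lower in knockout at day 30 and 0 at day 15. Means of 6 leukocyte markers were 8.50 to 8.63 at day 30 and 7.72 to 7.90 at day 15. Of these, Cd3e, Cd79a, Lyz2 and Mzb1 were called higher with age in both genotypes. Ptprc (0.201 in knockout, 0.145 in wild type) and Cd68 (-0.137 and -0.105) were not called. Means of 8 smooth muscle markers were 10.02 to 10.20 at day 30 and 10.39 to 10.75 at day 15. Muscle markers in knockout at day 15 (10.39 to 10.58) also lay below those in wild type (10.66 to 10.75). With the leukocyte mean as a covariate, added after the data were seen, 0 of the 6 genes were called with age in either genotype, and since that mean separates the ages on every array, the fit leaves little age difference to test. With the muscle mean as a covariate, which separates the ages on every array as well, 5 of the 6 were called in knockout and 0 in wild type. Fewer of the 108 relatives were called with age in both of these fits as well. The share of all genes called in them is not given here. Of 10 stomach and Brunner gland markers, Gkn3 (-0.62), Muc6 (-0.67) and Tff2 (-0.53) were called lower in knockout at day 15, with a median of -0.55 over the 10, and Gkn3 (-0.33) at day 30, with a median of 0.02. With age 4 of them were called higher in knockout, and 1 higher and 1 lower in wild type, with Muc5ac at 1.99 in knockout and 1.85 in wild type. The wild type arrays of day 30 had 8.31, 10.15 and 8.12 for Muc5ac (SD 1.12), so that size leans on replicate 2. The same array was also the highest of its group for Gkn1 (10.98), Tff1 (11.59), the pancreas marker Prss2 (13.23) and Xist (10.67). The part of the stomach and Brunner gland markers in the results was not tested.

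Several of the 6 genes are chiefly known from liver, and 9 hepatocyte markers had array means of only 5.79 to 6.09, with albumin (Alb) between 5.37 and 5.92, below that 25th percentile of gene means. Their range was 5.99 to 6.09 in knockout at day 30, 5.89 to 6.0 in wild type at day 30, 5.79 to 5.88 in knockout at day 15 and 5.84 to 5.98 in wild type at day 15. Of the 9, only Tat was called, with age (1.08 in knockout, 0.55 in wild type) and between genotypes at day 30 (0.72). Means of 10 enterocyte markers were higher in knockout than in wild type at day 30 (12.99 to 13.07, against 12.71 to 12.87) and at day 15 (13.04 to 13.09, against 12.89 to 12.98), where Hsd17b11 was lower. Single markers differed: limma called Fabp1, Lct and Slc5a1 higher in knockout at day 30, Sis and Slc5a1 at day 15, and 0 lower. Uncalled, Alpi (-0.19 at day 30, -0.15 at day 15) and Krt20 (-0.04 and -0.06) were lower in knockout, as was Fabp2 (-0.02) at day 15. With age all 10 were called in each genotype, 5 higher and 5 lower, so their mean is no plain measure of enterocyte share. The part of these 10 markers in the result was not tested. Adipocyte marker means stayed between 5.61 and 6.01. As checks of the duodenal label, the proximal markers Pdx1 (9.69 to 10.57) and Gata4 (10.36 to 10.77) were bright on all arrays. The ileal markers Fabp6 (4.71 to 5.09) and Slc10a2 (5.79 to 6.37) lay lower. With age Pdx1 (0.44 in knockout, 0.47 in wild type) and Gata4 (0.27 and 0.30) were called higher. Slc10a2 was called higher in knockout (0.39) but not in wild type (0.16), and Fabp6 in neither. Array means of the 4 were 8.0 to 8.06 at day 30 and 7.67 to 7.85 at day 15. Their part in the age changes was not tested. Pancreas acinar marker means overlapped between ages, and none of the 6 markers was called in limma between genotypes (2 at an unadjusted p under 0.05 at either age). Their median was -0.32 in knockout against wild type at day 30 (array means 12.78 to 13.24, against 13.03 to 13.69) and -0.28 at day 15 (12.82 to 13.29, against 13.26 to 13.37). With them as a covariate, also added after the data were seen, 1 of the 3 genotype calls at day 30 was left, that of Hsd17b13. Xist, a measure of the female share of each pool, ran from 9.26 to 11.37, and with it as a covariate the 6 genes held 0 genotype calls at day 30. With age Xist was called lower in wild type (-1.03, limma adjusted p = 0.03) and had -0.005 in knockout. The Y-linked genes Kdm5d, Eif2s3y and Uty had -0.58, -0.75 and -0.76 with age in knockout and 0.35, 0.23 and 0.18 in wild type, none called. At day 30 mean Xist was 10.6 in knockout and 9.82 in wild type. The Y-linked genes had 7.35, 8.71 and 8.12, against 7.95, 9.31 and 8.65. At day 15 Xist had 10.61 and 10.85, and the Y-linked genes 7.92, 9.46 and 8.87, against 7.6, 9.08 and 8.48. None of the 4 was called between genotypes, with 2 under an unadjusted limma p of 0.05 at day 30 and 0 at day 15. For the difference between genotype effects 4 were under it, and 0 were called. The part of pool sex and of pancreas RNA in the genotype differences and age changes was not tested further.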

How the data were processed

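The deposited table holds log2 expression values per array feature, which the authors made, per the submitters' processing notes, with RMA in Affymetrix Expression Console 1.1. The table does not name the base of the logarithm, and base 2 was assumed because RMA uses it and the values span a matching range. RMA makes the arrays' distributions nearly alike (array medians 7.20 to 7.25), so a shift shared by most genes would not show. Very dim and very bright features give understated folds, and 3 pools a group limit the precision. RNA was extracted with Trizol and 5.5 micrograms entered labelling, per the labels.

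Of 35557 features, 21789 had 1 gene symbol in the platform annotation, 1621 had several and 12147 had none. Features with 1 symbol were used, the highest-mean one for each gene, which gave 19938 genes, and 19855 of them matched RefSeq by Entrez identifier. For the array annotation, no genome build was found in the labels, and RefSeq served for names, gene order and promoters. Linear models with 1 mean for each of the 4 groups were fitted in limma 3.58.1 (R 4.3.3) with eBayes over all arrays, leaving 8 residual degrees of freedom. The code was tested on simulated data. The highest correlation between arrays was 0.9953, so no array repeated another.

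The 6 genes and all lists were chosen with earlier results of these data known. Named are the 6 genes, Onecut2, any other listed hydroxysteroid dehydrogenase, up to 4 called genes with the smallest p of each list and the 3 genes most like each of the 6. Marker genes were named as checks. Rdh1, Rdh16, Rdh18-ps, Rdh19, Sdr9c7, Dgat1, Pnpla2 and Fitm2 were named after their values had been seen. Alternatives were other variance settings and scalings, a filter that removes the lowest 25 percent of genes by mean, the lowest-mean feature, marker means or Xist as covariates, replicate number as a block, and leaving out each array. Replicate numbers are shared by the groups but were not taken to pair the arrays.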

Additional observations from a re-analysis of the deposited data

Results flagged for a closer look

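In Papss2, which makes the sulfate donor of steroid sulfation, the knockout effect differed between ages. It was less negative at day 30 than at day 15, by 0.94 on the log2 scale (SE 0.12, limma adjusted p = 0.0039). The sulfotransferase gene Sult6b2 differed likewise, by 1.39 (SE 0.24, limma adjusted p = 0.024). Both are listed as conjugation genes beside the 6 dehydrogenases, and both had less signal in knockout than in wild type at day 15, with log2 fold changes of -1.14 for Papss2 and -2.06 for Sult6b2. At day 30 mean levels were still lower in knockout, 13.47 against 13.67 for Papss2 and 12.51 against 13.19 for Sult6b2. Differences between such bright values may be understated. The call of Papss2 held in all alternatives but 1, the leukocyte mean as a covariate. That of Sult6b2 ended with that mean, the epithelium mean or Xist as a covariate, and when 1 array was left out, for 7 of the 12 arrays. The cause was not tested.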

How the results depend on the processing

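No called fold change of the 6 genes turned in direction under the alternatives run. The share of all genes called in each alternative is not given here. A loss of calls particular to these genes can therefore not be told from a general loss. Of the 6, the number called with age in knockout (6) was 0 with the leukocyte mean as a covariate and 6 without any single array. In wild type (6) it was 0 with the leukocyte or the smooth muscle mean and 5 to 6 without single arrays. Between genotypes at day 30 (3) it was 0 with Xist or the leukocyte mean, 1 with the pancreas acinar mean and 1 to 3 without single arrays. At day 15 (1) it was 2 with array weights, 0 with the epithelium, smooth muscle or leukocyte mean, 0 from the arrays of that age alone, 0 with the replicate block and 0 to 2 without single arrays. For the difference between genotype effects (0) it was 2 with an intensity trend, array weights or a repeated quantile normalization, 1 without dim genes and 0 to 1 without single arrays.

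Of the 108 relatives, the count with age in knockout (40) was 15 with the smooth muscle mean, 0 with the leukocyte mean and 34 to 41 without single arrays. In wild type (54) it was 20 with the epithelium mean, 4 with the smooth muscle mean, 0 with the leukocyte mean and 42 to 55 without single arrays. At day 30 (7) it was 12 with an intensity trend, 1 with Xist or the leukocyte mean, 4 with the pancreas acinar mean and 4 to 8 without single arrays. At day 15 (8) it was 14 with an intensity trend or array weights, 2 with the epithelium or leukocyte mean, 4 with the smooth muscle mean and 6 to 11 without single arrays. For the difference (2) it was 4 with a trend, 1 with the epithelium mean or Xist, 0 with the leukocyte mean and 1 to 2 without single arrays. With the leukocyte mean, which separates the ages on every array, age changes turned, uncalled, to -0.077, -0.083, -0.038 and -0.775 for Hsd17b7, Hsd17b12, Nr3c2 and Akr1b8 in knockout, and to -0.053, -0.115, -0.592 and -1.411 for them and 0.946 for Rdh7 in wild type. With the smooth muscle mean, Rdh1 turned to -0.12 and Cyp11b1 to -0.52 in wild type. The causes were not tested.

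Deviations of same-numbered arrays had correlations between -0.252 and 0.359 over 18 pairs, 7 of them above 0.1. Those of differently numbered arrays ran from -0.358 to 0.373 over 36 pairs, 11 of them above 0.1. As these ranges are alike, the numbers were not taken as a pairing. With the replicate block the 6 genes held 6, 6, 3, 0 and 0 calls in the order above. Hsd3b2 at both ages and Hsd3b3 at day 30 lie near background, which limits their folds.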
